A study of Mus musculus with 6 samples.

Results

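The AP-1 and immediate early genes followed here were the Fos family genes Fos, Fosb, Fosl1 and Fosl2, the Jun family genes Jun, Junb and Jund, and Atf3, Egr1 and Ier2. These 10 genes were taken by name as a family, by a rule that uses no measured value, although earlier results of these data were known when the list was made. Each probe set that carries exactly 1 gene symbol equal to a listed name was used, which gave 14 probe sets of 34945 and 10 genes of 18193. A probe set is a group of short oligonucleotides on the array that read 1 transcript. The livers came from C57BL/6 mice aged 6 to 8 weeks, kept without treatment and labelled male, a label that the Dnajb4+/+ arrays go against in the values given further on. One group was wild-type (HLJ1+/+, Dnajb4+/+) and the other was the HLJ1 knockout (HLJ1-/-, Dnajb4-/-), made by gene targeting in embryonic stem cells. By the labels, each group held 3 mice, with 1 Affymetrix Mouse Genome 430 2.0 array per mouse. HLJ1 is a heat shock protein of the DnaJ family, encoded in mice by Dnajb4. Which exons the targeting removed is not given in the sources used here. Values are the authors' GCRMA intensities on a linear scale, and every log2 difference is Dnajb4-/- minus Dnajb4+/+.

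AP-1 is a transcription factor made of paired bZIP proteins. Jun proteins can pair with each other, while Fos proteins need a Jun partner, and the pair binds short DNA motifs near its target genes. Many genes of the family are immediate early genes, whose transcripts rise within minutes of a growth factor, cytokine or stress signal without new protein synthesis and decay quickly afterwards. In the liver they are known for their brief induction at the start of regeneration, and Jun is required for normal liver development in mice.

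Promoter windows from RefSeq (GRCm38.p6) ran from 250 bases before to 50 bases after each annotated start. They were used for 7 of the members, namely Fos, Fosb, Fosl2, Jun, Junb, Jund and Atf3. Egr1 was left out of this search, and no window was available for Fosl1 and Ier2. The 4 windows below belong to the Jun genes, whose genotype differences are set against each other further on, and to Fos, the usual partner of Jun. They are given 5' to 3' on the strand of the gene. Capitals mark TGACG, the core of the cyclic AMP response element, on either strand, and TGACATCA, a variant of the AP-1 motif.
Junb, chr8:84978699-84978998, minus strand: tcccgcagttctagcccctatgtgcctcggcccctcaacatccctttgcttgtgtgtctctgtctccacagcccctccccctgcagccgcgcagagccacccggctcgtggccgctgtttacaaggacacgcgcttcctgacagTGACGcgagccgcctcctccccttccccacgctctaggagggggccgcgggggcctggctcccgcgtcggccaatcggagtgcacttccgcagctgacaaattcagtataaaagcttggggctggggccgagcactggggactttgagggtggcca
Jun, chr4:95052173-95052472, minus strand: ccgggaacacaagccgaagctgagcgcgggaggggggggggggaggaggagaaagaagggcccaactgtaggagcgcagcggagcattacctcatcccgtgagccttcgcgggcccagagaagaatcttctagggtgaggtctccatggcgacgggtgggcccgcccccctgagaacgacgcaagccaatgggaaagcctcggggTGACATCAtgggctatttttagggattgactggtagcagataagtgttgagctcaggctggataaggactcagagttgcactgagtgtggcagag
Jund, chr8:70697489-70697788, plus strand: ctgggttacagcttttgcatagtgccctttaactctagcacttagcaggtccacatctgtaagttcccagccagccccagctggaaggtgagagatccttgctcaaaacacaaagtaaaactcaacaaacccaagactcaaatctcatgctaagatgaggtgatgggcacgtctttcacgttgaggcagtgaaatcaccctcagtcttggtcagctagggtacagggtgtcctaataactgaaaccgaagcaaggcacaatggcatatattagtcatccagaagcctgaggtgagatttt
Fos, chr12:85473640-85473939, plus strand: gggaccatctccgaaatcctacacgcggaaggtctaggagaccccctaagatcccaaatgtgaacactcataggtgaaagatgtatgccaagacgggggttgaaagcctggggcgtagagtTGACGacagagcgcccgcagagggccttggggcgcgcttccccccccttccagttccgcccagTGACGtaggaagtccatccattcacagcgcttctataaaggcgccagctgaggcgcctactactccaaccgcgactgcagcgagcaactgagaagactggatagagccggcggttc

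Of these windows, that of Fos held TGACG at 129 to 125 and at 66 to 62 bases before the start, and that of Junb held it at 106 to 102 bases before the start. That of Jun held TGACATCA at 45 to 38 bases before the start. The window of Jund held none of the letters searched. Over both strands of all 32544 different windows, TGACG was found in 20.9%, TGACATCA in 3.37%, the AP-1 motif TGACTCA in 5.19%, CCAAT in 37.4%, TATAAA in 13.6%, the STAT motif TTCNNNGAA in 8.33% and the CArG box of serum response factor in 1.64%. Among the 7 windows of members, TGACG was found in 4, CCAAT in 3, TATAAA in 2 and TGACATCA in 1, without overlap between matches. None of the 7 held TGACTCA, TTCNNNGAA or a CArG box. Egr1 was not among these windows, and bases further than 250 before the start were not searched. GC made up 65.3% of the window of Junb, 60.0% of Jun, 58.7% of Fos and 46.7% of Jund, against a median of 53.0% over all windows. A match is a run of letters and says nothing about binding in these livers.

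The labels were checked before the members were compared. Averaged over its 3 probe sets, Dnajb4 read 132, 143 and 135 in Dnajb4+/+ and 117, 125 and 130 in Dnajb4-/- livers, a log2 difference of -0.14 (standard error 0.06, limma adjusted p = 0.145). A single Dnajb4 probe set of the 3 passed the test (-0.34, adjusted p = 0.00768 over all probe sets). The remaining ones were at -0.049 and -0.035 and did not pass. The Dnajb4 values thus do not show a loss of its transcript in the arrays labelled knockout, and the reason was not tested. Xist, the RNA that silences an X chromosome in female cells, read 364 to 402 in the Dnajb4+/+ arrays, which are labelled male, and 14.3 to 17.1 in Dnajb4-/- livers. The Y-linked Eif2s3y read 62.6 to 72.3 and 77.4 to 81.3. Of 13 measured genes known as higher in female liver, 12 were lower in Dnajb4-/- livers, among them the sulfotransferase gene Sult3a1, at 4495 to 4503 against 32.5 to 37.3, and the cytochrome P450 gene Cyp2b9, at 932 to 1041 against 19.2 to 24.3. Of 11 higher in male liver 7 were higher and 1 was lower, and none of 3 Y-linked genes was called. The Xist and female-high values of the Dnajb4+/+ arrays go against their label of male, and the reason was not tested. Over the 3 Y-linked genes, the same arrays read 77.9% to 102% of the gene's Dnajb4-/- mean. Whether each Dnajb4+/+ array reads RNA of 1 mouse was not tested. The SDs and standard errors given here may therefore not measure the spread between mice. All 3 Dnajb4+/+ arrays carried the Xist signal, so no comparison without such arrays could be made, and for every gene below the genotype and the source of this signal cannot be told apart. Across genes, the correlation between arrays of 1 genotype was 0.9981 to 0.9985, and genes are not independent replicates. As a measure of RNA quality, 3' over 5' signal of Gapdh was 1.17 ± 0.0134 with Dnajb4 intact and 1.45 ± 0.0265 in the knockout, and that of Actb 2.65 ± 0.0485 and 3.17 ± 0.0602 (SD, n = 3). For each of them the exact permutation test, two-sided, gave p = 0.1, the smallest possible with 3 arrays against 3.

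In Dnajb4-/- livers 3 of the 10 members were lower, Junb, Jun and Egr1, none was higher, and 7 did not pass the test (limma, adjusted p under 0.05 over all 18193 genes). Of all genes, 9.57% were called lower and 5.09% higher, dim genes included. Genes above the median signal, where 7 of the 10 members lay, gave 2129 lower calls when tested alone, against 1741 over all genes. More lower calls thus came from fewer genes. The 9.57% is therefore too low a background for bright members, and Junb, Jun and Egr1 are all among these. With each array centred on its bright probe sets, the share of higher genes among the calls moved from 34.7% to 52.5%. The same count of members was then called lower. The number of all genes called fell from 2667 to 1552 without Dnajb4+/+ replicate 1, 1621 without Dnajb4+/+ replicate 3, 1692 without Dnajb4-/- replicate 1 and 1721 without Dnajb4-/- replicate 2. The median log2 difference of the members was -0.067, beside 0.0075 over all genes. In 6 members (Junb, Jun, Egr1, Fos, Ier2 and Fosl1) each Dnajb4-/- array lay below each Dnajb4+/+ array, an order found in 19.4% of all genes.

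Junb encodes the Jun protein that often dampens the activity of Jun, and it had the largest difference of the members. It read 163, 150 and 172 in Dnajb4+/+ and 93.5, 107 and 103 in Dnajb4-/- livers. The genotypes did not overlap, and the gap between them was wider than the spread within either. The means were 162 ± 10.6 and 101 ± 6.80 (SD, n = 3), so that Junb differed on the log2 scale by -0.68 (standard error 0.07, 95% interval -0.84 to -0.51, limma adjusted p = 0.00119), or 1.60-fold. A single probe set reads this gene.

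Jun encodes c-Jun, the founding Jun protein and an activator of cell cycle entry. As the mean of its probe sets, Jun read 165, 154 and 170 in Dnajb4+/+ and 131, 136 and 133 in Dnajb4-/- livers. The Dnajb4-/- arrays lay close together and all below the lowest Dnajb4+/+ array. The means were 163 ± 8.35 and 133 ± 2.31 (SD, n = 3), so that Jun differed on the log2 scale by -0.29 (standard error 0.05, 95% interval -0.40 to -0.17, limma adjusted p = 0.00977), or 1.22-fold. Both probe sets of Jun showed this on their own. The brighter read 216, 194 and 228 against 158, 181 and 169 (log2 difference -0.33, adjusted p = 0.0394 over all probe sets), and the dimmer read 125, 122 and 127 against 110, 102 and 104 (-0.25, adjusted p = 0.0195). With Junb and Egr1 these made 4 of 14 member probe sets called lower, where 8.34% of all probe sets were, and the count was 1 without Dnajb4+/+ replicate 1 and 2 without Dnajb4+/+ replicate 3 or without Dnajb4-/- replicate 2.

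Jund encodes the Jun protein with the steadiest expression in resting cells. It read 138, 144 and 151 in Dnajb4+/+ and 143, 146 and 146 in Dnajb4-/- livers. The Dnajb4-/- arrays lay inside the range of the Dnajb4+/+ arrays. The log2 difference was 0.0083 (standard error 0.04, limma adjusted p = 0.923), with a 95% interval of -0.10 to 0.11. Its brighter probe set read 480 to 501 and 473 to 486, and its dimmer probe set 39.8 to 46.1 and 43.6 to 44.2.
The changes of the Jun genes were set against each other within arrays, in 3 pairs chosen after their values were seen. The log2 difference of Junb lay below that of Jund by 0.68 and below that of Jun by 0.39, and that of Jun lay below that of Jund by 0.29, with standard errors of 0.07, 0.05 and 0.05. In each pair the arrays of the genotypes did not overlap (two-sided exact permutation test, p = 0.1 for each and 0.1 adjusted over the 3 pairs, the smallest that 3 arrays against 3 can give).

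Egr1 encodes a zinc finger factor that serum and stress signals switch on through serum response factor, alongside Fos. It read 476, 448 and 473 in Dnajb4+/+ and 372, 370 and 395 in Dnajb4-/- livers. The lowest Dnajb4+/+ array stood clear of the highest Dnajb4-/- array. The means were 466 ± 15.5 and 379 ± 14.0 (SD, n = 3), so that Egr1 differed on the log2 scale by -0.30 (standard error 0.05, 95% interval -0.41 to -0.19, limma adjusted p = 0.00707), or 1.23-fold.
Ier2 encodes a small nuclear protein induced in the same early wave. It read 415, 419 and 439 in Dnajb4+/+ and 395, 408 and 391 in Dnajb4-/- livers. As for Egr1 the genotypes did not overlap, but the gap between them was narrow. The log2 difference was -0.092 (standard error 0.04, 95% interval -0.19 to 0.0063), and it did not pass (limma adjusted p = 0.194).

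Fos encodes c-Fos. It read 52.6, 50.7 and 51.0 in Dnajb4+/+ and 39.9, 40.7 and 50.0 in Dnajb4-/- livers. Dnajb4-/- replicate 3 lay just under the Dnajb4+/+ arrays, away from the other 2 of its genotype. The means were 51.4 ± 1.00 and 43.5 ± 5.62 (SD, n = 3). Their difference on the log2 scale was -0.25 (standard error 0.09, 95% interval, not adjusted for the number of genes, -0.45 to -0.043) and did not pass the test (limma adjusted p = 0.108). Without Dnajb4-/- replicate 3 it passed, at -0.35 (adjusted p = 0.00839).
Fosl2 encodes Fra-2, a Fos relative without the strong activation domain of c-Fos. Its value, over 2 probe sets, was 65.4, 69.9 and 59.0 in Dnajb4+/+ and 72.3, 72.7 and 70.0 in Dnajb4-/- livers. The Dnajb4-/- arrays were the higher ones, by a small margin at the nearest pair. The log2 difference was 0.15 (standard error 0.06, 95% interval -0.0045 to 0.30, limma adjusted p = 0.180), and the probe sets taken singly gave 0.15 each with overlapping arrays.
Fosl1, which encodes the related Fra-1, read 21.2 to 21.6 in Dnajb4+/+ and 20.5 to 21.0 in Dnajb4-/- livers, a log2 difference of -0.042 (95% interval -0.13 to 0.042, limma adjusted p = 0.482). Its arrays did not overlap as a mean of 2 probe sets but did in each probe set alone. Fosb, a Fos gene best known from the brain, read 10.4 to 12.7 and 10.5 to 14.6, with a log2 difference of 0.078 (95% interval -0.22 to 0.38, adjusted p = 0.732). Atf3, a stress-induced bZIP factor that can pair with Jun proteins, read 26.3 to 29.0 and 26.2 to 27.7, with a log2 difference of -0.039 (95% interval -0.16 to 0.078, adjusted p = 0.651). Fosl1, Fosb and Atf3 are the 3 members whose mean lay below the median of all genes, and no detection call was used here, so how much of their signal stands above background is unknown.

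**Figure D1:**
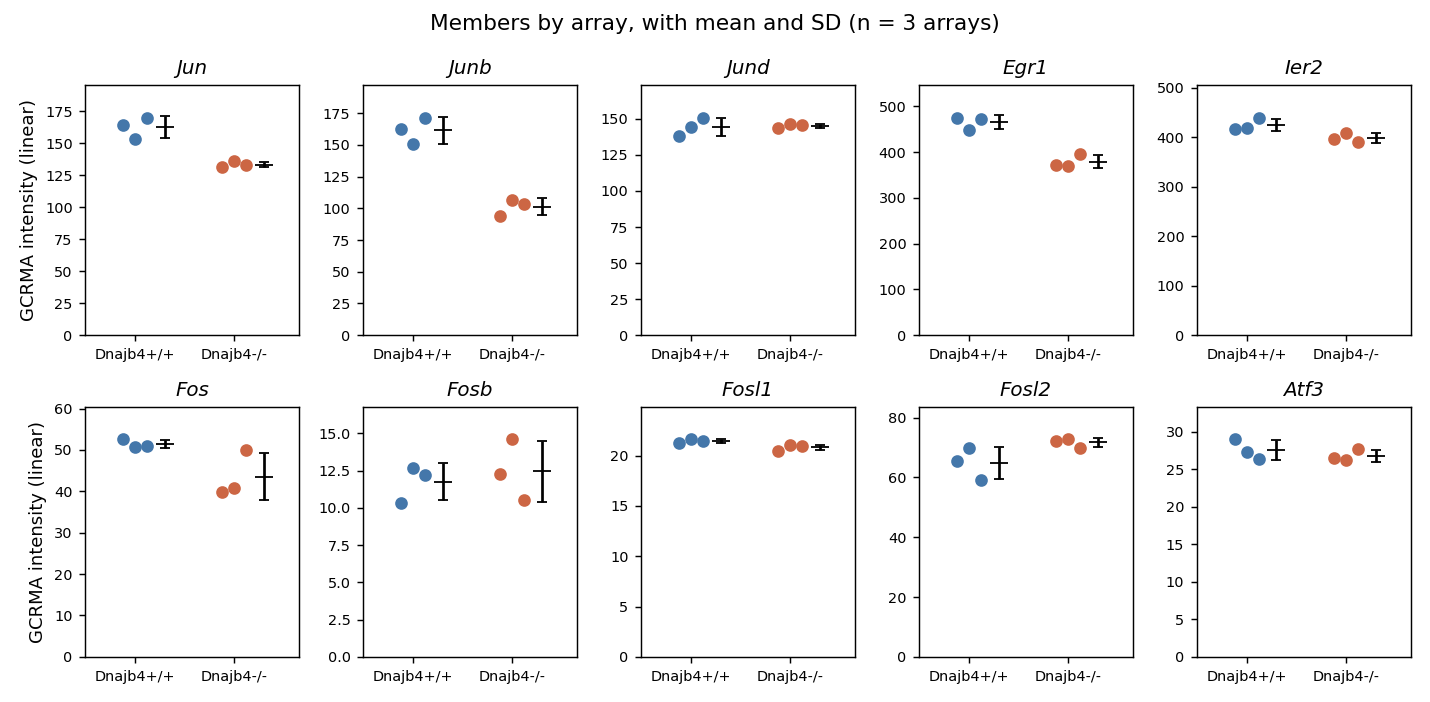
GCRMA intensity on a linear scale (y axis, starting at 0) of the 10 members in each array of the 2 genotypes, with bars for the mean and SD of 3 arrays. The Dnajb4-/- arrays of Junb lie at 93.5 to 107, below the Dnajb4+/+ arrays at 150 to 172, while those of Jund lie among the Dnajb4+/+ arrays.

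**Figure D2:**
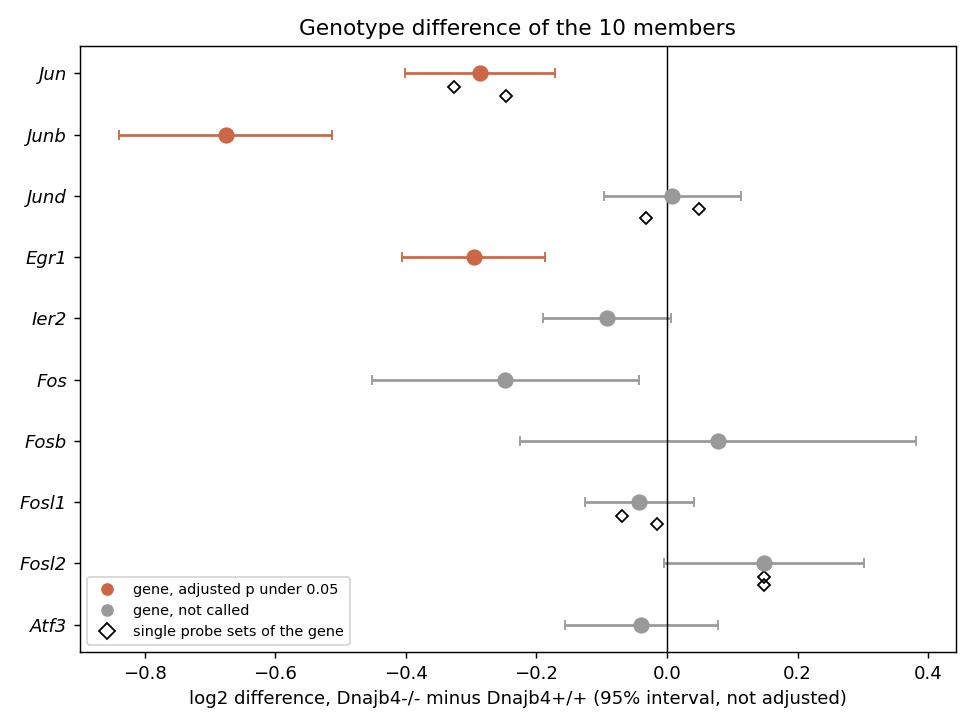
Log2 difference of each member (x axis, Dnajb4-/- minus Dnajb4+/+) with its 95% interval from limma, not adjusted for the number of genes, and diamonds for the single probe sets of genes that have 2. Junb (-0.68), Egr1 (-0.30) and Jun (-0.29) were called lower, and the interval of Jund spans 0.

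The genes whose pattern over the 6 arrays lay nearest to that of Junb, the called member with the largest fall, were sought among 8839 genes brighter than the median gene, leaving out gene models without a proper name. Likeness was measured as the root mean square distance between log2 profiles, each taken from its own Dnajb4+/+ mean. The nearest was Slc22a5, the carnitine transporter of the cell surface, at a distance of 0.019. It read 167, 157 and 174 in Dnajb4+/+ and 97.4, 112 and 106 in Dnajb4-/- livers. The next were Cry2, a repressor of the circadian clock, at 0.033 and Gbp2, an interferon-induced GTPase, at 0.034. Their log2 differences were -0.66 for Slc22a5, -0.67 for Cry2 and -0.71 for Gbp2. As in Junb, Dnajb4+/+ replicate 3 was the highest array and Dnajb4-/- replicate 1 the lowest in all 3. The search picked these genes for their likeness over the same arrays, so the shared order is no separate result. No member was called higher, so no such search was made for a rise.

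**Figure D3:**
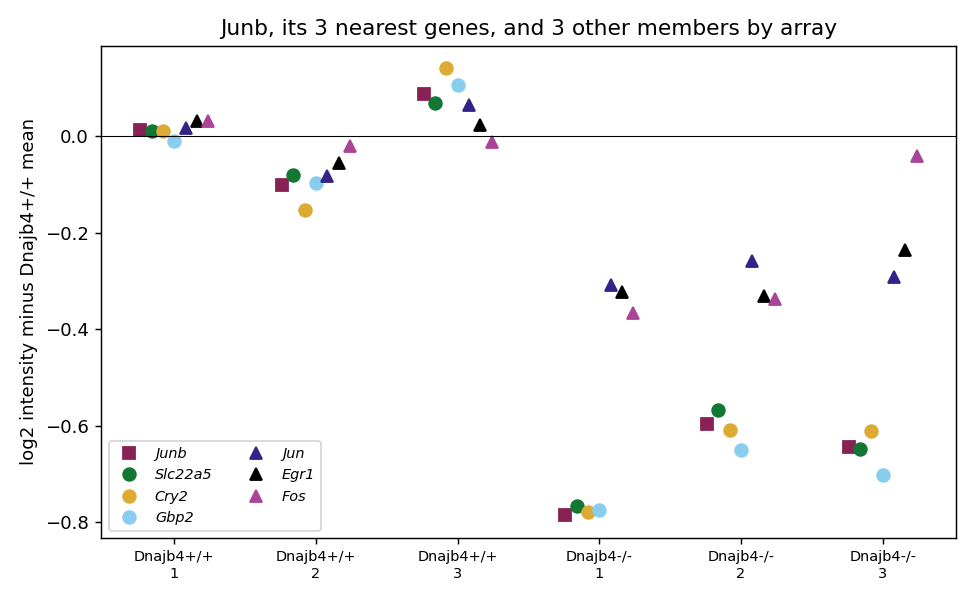
Log2 intensity minus the gene's own Dnajb4+/+ mean (y axis) in each of the 6 arrays (x axis) for Junb (squares), the 3 genes nearest to it (circles) and the members Jun, Egr1 and Fos (triangles). Slc22a5, Cry2 and Gbp2 lie close to Junb, the likeness for which they were picked. Fos in Dnajb4-/- replicate 3 lies close to 0, apart from its other 2 Dnajb4-/- arrays.

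Other immediate early and primary response genes moved in both directions. Of 42 measured, 8 were lower (19.0%), 6 were higher (14.3%) and 28 did not pass, with a median log2 difference of -0.019. Over all genes, dim ones included, 9.57% were lower and 5.09% higher. Per1, a clock gene that also answers acute signals, read 313 to 334 in Dnajb4+/+ and 154 to 164 in Dnajb4-/- livers, a log2 difference of -1.03 (standard error 0.05, limma adjusted p = 3.16e-05). Maff, a small Maf factor of the bZIP class, fell by 0.60 on the log2 scale, with means of 135 ± 12.5 and 88.9 ± 6.37 (SD, n = 3, adjusted p = 0.00416 from limma).
Against these, Myc, which drives cell growth, read 138 to 159 in Dnajb4+/+ and 248 to 260 in Dnajb4-/- livers, a rise of 0.76 (adjusted p = 4.45e-04). Gadd45g, a stress sensor gene, read 385 to 426 in Dnajb4+/+ and 614 to 636 in Dnajb4-/- livers (0.62, adjusted p = 3.77e-04). The other called genes, listed after their values were seen, were Plk3, Dusp6, Klf6, Rhob, Klf2 and Socs3 as lower (-0.49 to -0.25) and Dusp1, Ccn2, Phlda1 and Klf10 as higher (0.19 to 0.51). Thus the phosphatase genes Dusp1 and Dusp6, which both switch off MAP kinases, differed in opposite directions, at 0.51 and -0.40.

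Among bZIP partners and relatives of AP-1, 8 of 22 measured genes were lower (36.4%), 1 was higher (4.55%) and 13 did not pass. The shares over all genes, dim ones included, were 9.57% and 5.09%. Without Dnajb4-/- replicate 2, the number called in this list was 5 instead of 9. Ddit3, which encodes the stress factor CHOP, read 53.6 to 58.2 in Dnajb4+/+ and 40.9 to 42.0 in Dnajb4-/- livers (log2 difference -0.45, limma adjusted p = 0.00114). Nfe2l2, which encodes the antioxidant regulator NRF2, differed by -0.30 (adjusted p = 0.0143), and Mafg, a small Maf partner of NRF2, by -0.26 (adjusted p = 0.0158). Crem, a factor of the cyclic AMP response, was the gene that rose, from 53.3 ± 2.11 to 64.8 ± 2.20 (SD, n = 3, log2 difference 0.28, adjusted p = 0.00953). The other 5 lower genes, Mafk, Cebpa, Jdp2, Atf5 and Bach1, named after their values were seen, lay between -0.24 and -0.20.

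Of 26 kinases and factors upstream of AP-1, 3 were lower (11.5%), 2 were higher (7.69%) and 21 did not pass, shares near the 9.57% and 5.09% of all genes. Map2k6, a kinase that activates p38, read 112 to 117 in Dnajb4+/+ and 52.7 to 59.0 in Dnajb4-/- livers (log2 difference -1.05, limma adjusted p = 4.56e-05). Map2k3, another activator of p38, differed by -0.35 (adjusted p = 0.00349). Map2k4, which acts on JNK and can act on p38, was named after its value was seen and was at 0.0071 (adjusted p = 0.915). Higher were Egfr, the receptor for epidermal growth factor, by 0.34 (adjusted p = 0.00240) and Map3k1, a kinase of the JNK cascade, by 0.30 (adjusted p = 0.00326). The remaining called gene, Met, the receptor for hepatocyte growth factor, differed by -0.18. With quantile normalization, or with arrays centred on bright probe sets, 5 of the list were higher and 3 lower.
Of 21 genes often cited as AP-1 targets, 5 were lower (23.8%), 1 was higher (4.76%) and 15 did not pass, with a median of -0.053. Beside these stand the same 9.57% and 5.09% of all genes. The list was chosen with earlier results of these data known, so its count is no independent result about AP-1. The metallothioneins Mt2 and Mt1, which bind zinc and answer many signals besides AP-1, read 3325 to 3402 and 1093 to 1170 in Dnajb4+/+ and 368 to 380 and 280 to 291 in Dnajb4-/- livers. Their log2 differences were -3.16 (limma adjusted p = 6.54e-08) and -1.99 (adjusted p = 8.30e-07). Ccnd1, which encodes cyclin D1, differed by -0.67 and Vim, the intermediate filament of mesenchymal cells, by -0.43. The other called genes, Tgfb1 (-0.20) and Ccl2 (0.15), were small in size.

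**Figure D4:**
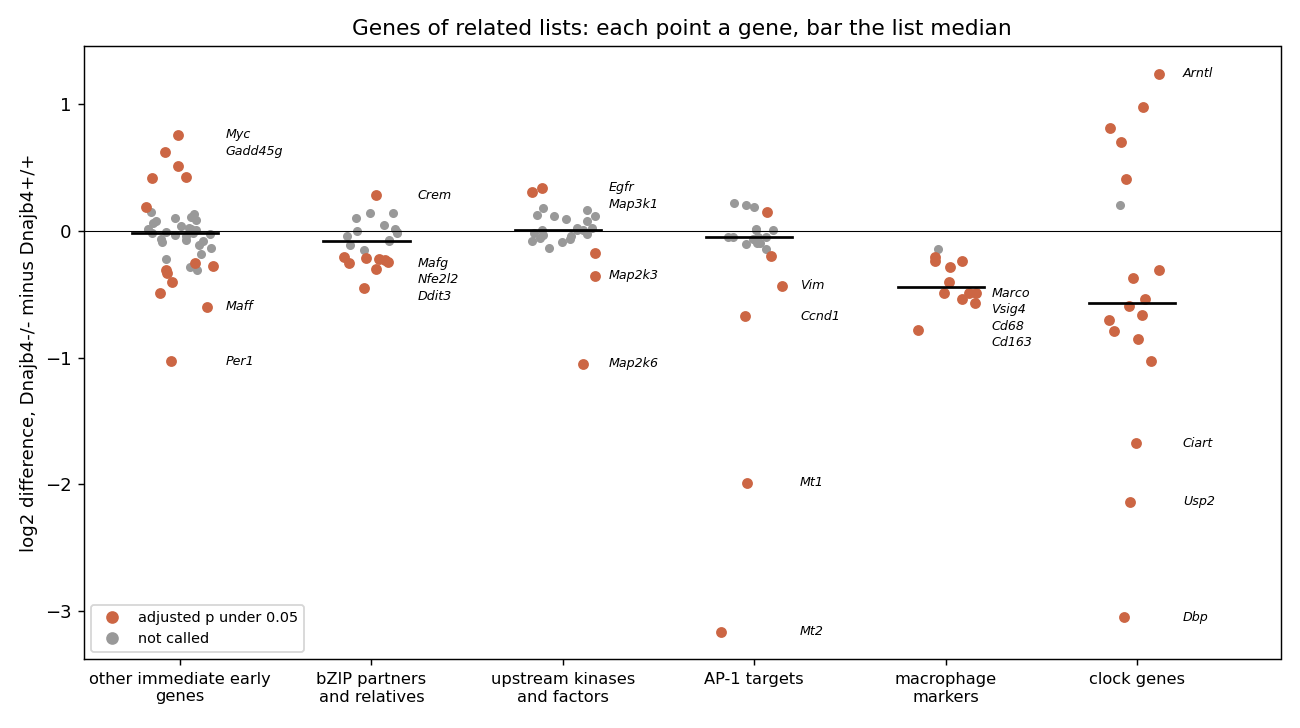
Log2 difference (y axis, Dnajb4-/- minus Dnajb4+/+) of each measured gene of 6 lists (x axis), in colour where limma's adjusted p is under 0.05, with a bar at the list's median and names beside up to 4 called genes (names are moved down where they would overlap). The 4 AP-1 lists have medians of -0.079 to 0.0058, with genes on both sides of 0. Called genes were mostly lower among bZIP partners and relatives (8 lower, 1 higher) and AP-1 targets (5 lower, 1 higher). Of 12 macrophage markers, 11 were called lower.

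Markers of other cells moved beside the members, where 9.57% of all genes, dim ones included, were lower and 5.09% higher. Of 12 Kupffer cell and macrophage markers 11 were lower, with a median of -0.45, among them Cd163 (-0.78), Cd68 (-0.57), Vsig4 (-0.54) and Marco (-0.49), and their summed intensity was 6367 to 6703 in Dnajb4+/+ and 4859 to 5108 in Dnajb4-/- livers. Of 18 clock genes 12 were lower and 5 higher, among them Dbp (-3.05), Usp2 (-2.14), Ciart (-1.67) and Arntl (1.24), with sums of 5885 to 6119 and 3345 to 3446. Of 14 skeletal muscle markers 10 were lower, with sums of 837 to 889 and 429 to 445, and of 9 endothelial markers 4 were lower, with sums of 1554 to 1651 and 1340 to 1436. Hepatocyte markers summed to 140427 to 141123 and 137258 to 137968, with 1 of 9 lower and 2 higher. The lower and higher counts were 2 and 0 of 9 for neutrophils, 1 and 0 of 8 for lymphocytes, 1 and 0 of 9 for stellate cells and fibroblasts, 0 and 1 of 5 for cholangiocytes, 1 and 0 of 5 for erythroid cells, 1 and 0 of 4 for adipocytes and 0 and 1 of 5 for pancreatic acinar cells. Bulk liver arrays cannot tell fewer cells of a type from less RNA per cell, and the part of these markers, of the clock genes or of the 3' to 5' ratio in the differences of Junb, Jun and Egr1 was not tested.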

How the data were processed

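By the labels, liver RNA of 3 Dnajb4+/+ and 3 Dnajb4-/- mice was hybridised to 1 Affymetrix Mouse Genome 430 2.0 array each. The deposited table holds linear intensities. Per the paper's methods, the authors made them in GeneSpring by GCRMA, which corrects for background by probe GC content, normalizes across the arrays and summarises each probe set as a single value, followed by global median centring. Array medians were 31.8 to 32.5, and the number of arrays limits the precision.

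Groups and replicate numbers came from the labels. Of 45101 probe sets, 932 had several gene symbols in GEO's platform annotation and 9211 had none. The 64 control probe sets, some of them also in these classes, were left out, and the 34945 others with 1 symbol were used, averaged on the log2 scale into 18193 genes, without a filter on dim genes. The test was that of limma 3.58.1 under R 4.3.3 (lmFit, eBayes, two-sided), with Benjamini-Hochberg adjustment over all genes or all probe sets and a threshold of 0.05. The procedure was tested on simulated data. The members, the gene lists and the rule for naming genes (up to 4 called genes of a list with the largest difference) were chosen with earlier results of these data known. Replicate numbers were not used as a block, since deviations of same-numbered arrays correlated at -0.021, -0.14 and 0.0091. Promoter sequences are RefSeq's, in GRCm38.p6. The plots used python 3.11.15 and matplotlib 3.10.9.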

Additional observations from a re-analysis of the deposited data

How the results depend on the processing

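Under 16 alternatives for normalization, centring, a filter on dim genes, how probe sets make a gene value, an offset, the variance estimate, the methods' t-test, pairing by replicate number and the loss of any single array, Junb (-0.73 to -0.60), Jun (-0.33 to -0.23) and Egr1 (-0.33 to -0.26) were called lower each time. Jund, Ier2, Fosl2, Fosl1, Fosb and Atf3 were not called under any alternative that held them (15 for the 3 dim genes, which a filter at the median signal left out), and Fos was called once. With the replicate block, 3 members, 1529 genes, 5 bZIP genes and 2 member probe sets were called, without an array the numbers were 3 to 4, 1552 to 2009, 5 to 7 and 1 to 4, and the block did not move the other counts of calls by more than 1.5 times. The list of upstream kinases had 8 called genes instead of 5 with quantile normalization, centring on bright probe sets, 16 added to each value or a trended robust variance. Dnajb4 passed with linear means of its probe sets (-0.27), with its brightest probe set (-0.34) and with 16 added (-0.13), and the cause of these moves was not tested. By the methods' t-test, 5 members and 4916 genes passed unadjusted, and 3 and 2038 after Benjamini-Hochberg. The share of higher genes among the calls was 34.7%, against 44.6% with quantile normalization. Dim signals limit Fosb, Fosl1 and Atf3, and Junb, Egr1, Fos, Ier2, Fosb and Atf3 each rest on 1 probe set.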
